A study of Mus musculus with 20 samples.

Results

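The genes described here are 8 osteoclast genes chosen by name, *Acp5*, *Ctsk*, *Calcr*, *Nfatc1*, *Mitf*, *Jdp2*, *Ostf1* and *Car2*, of the 54532 genes in the count table. All 8 passed the filter on low counts and were among the 15984 genes tested. RNA-seq was performed on the temporomandibular joint (TMJ), where the lower jaw meets the skull, and each sample held the head of the mandibular condyle and some of the bone under its cartilage. All animals were Acan-CreERT2;*Loxl2* fl/fl, with floxed *Loxl2* alleles and an inducible Cre driven by the aggrecan promoter, which is active in cartilage cells. The control group (8 animals) was given vehicle, and the 12 animals labeled LOXL2 conditional knockout were given tamoxifen at 75 mg/kg, first at 6 months of age on 5 days in a row and then monthly, and joints were collected after 4 months. Since no group had tamoxifen without floxed *Loxl2*, effects of tamoxifen and of the deletion cannot be told apart. Animals of both sexes were used per the methods of the study, and the labels give neither the sex nor a batch of a library.

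Osteoclasts are giant multinucleated cells of the macrophage lineage that dissolve bone and calcified cartilage. They attach to the mineral surface, acidify the sealed space beneath them with a proton pump, and release enzymes that digest the exposed collagen. The cytokines M-CSF and RANKL drive their formation, and the transcription factor NFATc1, with PU.1, MITF and AP-1 family factors, turns on the genes of the mature cell. In the TMJ, osteoclasts work in the subchondral bone and at the front where cartilage is replaced by bone. Among the 8 genes, *Acp5* (tartrate-resistant acid phosphatase, the classical histological marker), *Ctsk* (cathepsin K, the main collagen-degrading protease) and *Car2* (carbonic anhydrase II, which supplies protons) are effectors. *Calcr* encodes the calcitonin receptor, through which calcitonin inhibits resorption. *Nfatc1*, *Mitf* and *Jdp2* encode transcription factors, and *Ostf1* encodes osteoclast-stimulating factor 1, an intracellular SH3-domain protein that is expressed widely outside osteoclasts.

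The promoter windows that hold letters recognized by this factor network are shown first. RefSeq (GRCm38.p6) windows were matched for 6 of the 8 genes, with 13 start sites in all, and *Car2* and *Nfatc1* had no entry. The 250 bases before each start site were searched on both strands for CATGTG and CACGTG (E-boxes of the MITF family), GGAAAA (the NFAT core), TGANTCA (AP-1) and GAGGAA (the PU.1 core). Matches were found in 2 of the 3 *Acp5* windows, in the single *Ctsk* window and in 1 of the 3 *Jdp2* windows. The 3 windows printed below belong to the members with the largest fold changes and run 5′ to 3′ on the strand of the gene, with the motif letters in capitals. The first *Acp5* start site has its window at chr9:22135747-22135996, minus strand, upstream of the gene in GENCODE M21, and holds GGAAAA from 167 to 162 bases before the start. The third *Acp5* window, at chr9:22130599-22130848, minus strand, lies inside the annotated gene with 10 of its bases in an exon, and holds CATGTG, written here as its complement CACATG, 90 to 85 bases before the start. The *Ctsk* window, at chr3:95498960-95499209, plus strand, lies upstream of the annotated gene and holds GAGGAA at 233 to 228 bases and, as TTCCTC, at 58 to 53 bases before the start.
Acp5, start site 1: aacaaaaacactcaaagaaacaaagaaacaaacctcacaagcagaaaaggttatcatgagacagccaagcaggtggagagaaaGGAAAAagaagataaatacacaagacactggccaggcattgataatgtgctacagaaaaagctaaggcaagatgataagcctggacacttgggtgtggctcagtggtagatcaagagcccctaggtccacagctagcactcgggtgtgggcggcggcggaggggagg
Acp5, start site 3: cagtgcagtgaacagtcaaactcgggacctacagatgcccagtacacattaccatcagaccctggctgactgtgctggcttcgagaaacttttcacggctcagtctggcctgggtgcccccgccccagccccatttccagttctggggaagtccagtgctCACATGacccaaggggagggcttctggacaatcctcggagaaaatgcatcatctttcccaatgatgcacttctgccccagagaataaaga
Ctsk, start site 1: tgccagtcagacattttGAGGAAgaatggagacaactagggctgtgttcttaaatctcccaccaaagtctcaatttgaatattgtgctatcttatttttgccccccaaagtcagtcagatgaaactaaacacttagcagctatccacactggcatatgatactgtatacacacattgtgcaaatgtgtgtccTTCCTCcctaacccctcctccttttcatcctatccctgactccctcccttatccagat

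These motifs are common. Among 32851 promoter windows of the same length, 20.4% held GGAAAA, 23.3% GAGGAA, 12.3% CATGTG, 6.75% TGANTCA and 6.02% CACGTG. No motif searched was in the windows of *Calcr*, *Mitf* or *Ostf1*, which says only that these letters are not in these windows.

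Library totals ranged from 11153820 to 27045668 counts, so that 3 counts, the floor used here, correspond to between 0.0964 and 0.246 CPM (library-size scaled counts, with TMM factors). The targeted gene *Loxl2* was not lower in the libraries labeled knockout. Its level was 64.5 ± 30.9 CPM (SD, n = 8) for control libraries, compared with 101 ± 26.9 CPM (SD, n = 12) for those labeled knockout (log2 fold change 0.64, edgeR adjusted p = 0.101), and the table does not count exons separately, so the deletion was not checked. The tissue held cartilage, bone and muscle: summed chondrocyte markers reached 1595 to 3256 CPM in 7 control libraries but 111 CPM in control replicate 8, where the sum of 10 skeletal muscle markers was also highest among all libraries (163107 CPM). The cartilage matrilin gene *Matn1* was at 0 counts in every control library and had at most 2 counts in a library labeled knockout, below the floor. Control replicate 5 had the highest osteoblast and osteocyte marker sum of the control group (12299 CPM, next 4728 CPM). The members are therefore also given without these libraries. The share of counts from mitochondrially encoded genes was 15.2% to 23.1% in control (median 17.3%) and 9.06% to 18.3% in the libraries labeled knockout (median 13.1%). The sum of 4 Y-linked genes ran from 0 to 194 CPM in control (median 0.298). In the libraries labeled knockout it ran from 0 to 143 CPM (median 50.7), so the mix of sexes may differ between the groups.

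Of the 8 members, 6 were significantly higher in the libraries labeled knockout (*Acp5*, *Ctsk*, *Jdp2*, *Calcr*, *Nfatc1* and *Ostf1*) and 0 were lower, whereas *Mitf* and *Car2* did not pass the test. Over all 15984 genes tested, 12% were called higher and 11% lower by the same edgeR quasi-likelihood test at an adjusted p of 0.05. The median log2 fold change was 1.01 over the 8 members and -0.02 over all genes. No member separated the groups completely, a pattern found for 0.213% of all tested genes in the higher direction and 0.0876% in the lower. Without control replicates 5 and 8 the count of members called higher was again 6, and with control replicate 8 alone left out it was 5, since *Calcr* lost its call. With the mitochondrially encoded genes removed before scaling it was 6, and with the Y-linked genes as a covariate it was also 6. In bulk tissue, more osteoclasts and more RNA of these genes per osteoclast cannot be told apart. Marker sums of bone and of muscle also differed between the groups, as given below. How far the share of these tissues in a sample contributes was not tested.

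**Figure D1:**
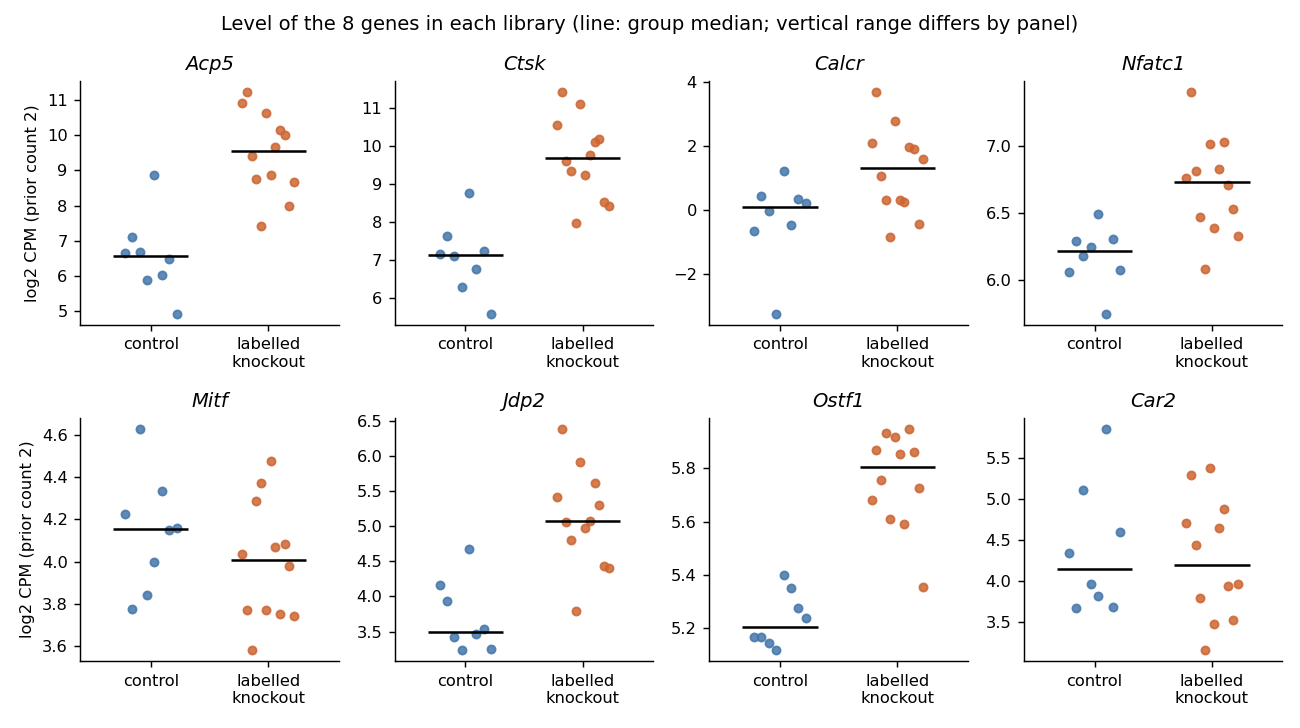
Level of each of the 8 genes in every library as log2 CPM with a prior count of 2, with control libraries (n = 8) in blue, libraries labeled knockout (n = 12) in orange and the group median as a line; the vertical range differs between panels. *Acp5* and *Ctsk* spread over several log2 units within each group, *Ostf1* varies least, and the groups of *Mitf* and *Car2* lie over each other.

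The effectors *Acp5* and *Ctsk* changed most. *Acp5* (ENSMUSG00000001348, chr9:22126727-22135711, minus strand) ranged from 30.2 to 463 CPM in control, with a median of 95.0, and from 170 to 2407 CPM in the libraries labeled knockout, with a median of 754. All 12 libraries labeled knockout lay above the control median, 8 lay above the highest control library, and control replicate 5 alone reached into the range of the other group. The difference was 2.85 on the log2 scale (SE 0.56, adjusted p = 0.00212), a 7.23-fold difference, and only 19 tested genes, *Acp5* included, had one at least as large.

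*Ctsk* (ENSMUSG00000028111, chr3:95499256-95509362, plus strand) followed the same libraries. Its level ran from 48.5 to 435 CPM in control (median 141) and from 251 to 2730 CPM in the libraries labeled knockout (median 827). The extremes were the same as for *Acp5*: control replicate 8 was lowest and control replicate 5 highest in control, and replicates 5 and 2 were lowest and highest among the libraries labeled knockout. In all, 9 of the 12 libraries labeled knockout exceeded the highest control. The log2 fold change was 2.68 (SE 0.48, adjusted p = 0.00140), or 6.42-fold. Leaving out control replicate 5 moved *Acp5* from 2.85 to 3.504 and *Ctsk* from 2.68 to 3.07, the highest values among 20 fits that each left out 1 library.

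*Car2*, the proton-supplying effector, did not change with them. *Car2* (ENSMUSG00000027562, chr3:14886273-14900770, plus strand) ranged from 12.7 to 57.9 CPM in control (median 17.8) and from 8.83 to 41.5 CPM in the libraries labeled knockout (median 18.6). The groups overlapped throughout, with 6 of 12 libraries labeled knockout above the control median. The log2 fold change was -0.15 (SE 0.32, adjusted p = 0.777), and its sign turned to 0.18 when control replicate 6, the highest control library, was left out, and to 0.05 with library totals alone as scaling. Red blood cell precursors also contain carbonic anhydrase II, and control replicate 6 had the highest sum of the erythroid markers among all 20 libraries (1429 CPM). What these cells contribute to *Car2* was not tested.

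The receptor gene *Calcr* (ENSMUSG00000023964, chr6:3685680-3764714, minus strand), a late marker of the osteoclast, was the scarcest member. It had 0 to 33 counts per library in control and 8 to 401 in the libraries labeled knockout. On the CPM scale the control libraries ran from 0 to 2.25 with a median of 0.974, and the libraries labeled knockout from 0.450 to 12.9 with a median of 2.46. In 6 of the 12 libraries labeled knockout the level exceeded the highest control, and 10 exceeded the control median, so the groups overlapped widely. The log2 fold change was 1.82 (SE 0.62, adjusted p = 0.0383). This call was the least stable among the members: it was lost in 11 of the 20 fits that left out 1 library (control replicates 1, 3, 4, 6, 7 or 8, or labeled knockout replicates 1, 2, 6, 9 or 10), with adjusted p from 0.0217 to 0.0836 over the 20.

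Among the transcription factor genes, *Jdp2* rose most. *Jdp2* encodes a basic leucine zipper protein of the AP-1 network that promotes osteoclast differentiation. *Jdp2* (ENSMUSG00000034271, chr12:85599027-85639878, plus strand) ranged from 9.30 to 25.5 CPM in control (median 11.2) and from 13.7 to 83.6 CPM in the libraries labeled knockout (median 33.5). Every library labeled knockout lay above the control median and 9 of 12 above the highest control, again with control replicate 5 highest and labeled knockout replicate 5 lowest in its group. The log2 fold change was 1.46 (SE 0.29, adjusted p = 0.00220), or 2.76-fold.

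*Nfatc1*, the master regulator of the lineage, rose by a smaller factor. *Nfatc1* (ENSMUSG00000033016, chr18:80606205-80713071, minus strand) had 53.7 to 89.9 CPM in control (median 74.2) and 67.6 to 169 CPM in the libraries labeled knockout (median 106). Here 11 of 12 libraries labeled knockout exceeded the control median and 8 the highest control. In the edgeR fit it was 1.46-fold higher (log2 fold change 0.55, SE 0.14, adjusted p = 0.00920). *Nfatc1* is also expressed by endothelial and other cells, and what they contribute was not tested.

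*Mitf* did not pass the test. *Mitf* encodes a basic helix-loop-helix factor that acts in osteoclasts, mast cells and melanocytes. *Mitf* (ENSMUSG00000035158, chr6:97807052-98021349, plus strand) ranged from 13.6 to 24.7 CPM in control (median 17.7) and from 11.8 to 22.2 CPM in the libraries labeled knockout (median 15.99). Only 3 of 12 libraries labeled knockout exceeded the control median and none the highest control. The log2 fold change was -0.14 (SE 0.13, adjusted p = 0.432), its sign turned under library totals alone, and the table does not separate the transcripts that start at different *Mitf* promoters. Of 8 tested mast cell markers 6 were called higher. The sum of all 10 listed mast cell markers ran from 14.01 to 33.3 CPM in control and from 15.3 to 206 CPM in the libraries labeled knockout. *Gata2*, which was not called, had 13.6 CPM on average in control. Of the melanocyte markers, *Tyr* had no count in any library and 0 of 3 tested genes were called.

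*Ostf1* showed a small but very even difference. *Ostf1* (ENSMUSG00000024725, chr19:18516137-18631823, minus strand) had 34.6 to 42.1 CPM in control (median 36.7) and 40.8 to 61.7 CPM in the libraries labeled knockout (median 55.9). In all, 11 of the 12 libraries labeled knockout lay above the highest control, and replicate 12 alone fell within the control range. The libraries labeled knockout were 1.45-fold higher (log2 fold change 0.53, SE 0.08, adjusted p = 0.00101), with the 8th smallest p of all tested genes. The coefficient of variation among control libraries was 7.23% for *Ostf1*, compared with 14.7% for *Nfatc1*, 73.1% for *Ctsk* and 106% for *Acp5*. *Ostf1* therefore ranked ahead of *Acp5* by p with a much smaller fold change.

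Markers of bone-forming cells moved with these genes. Of 11 osteoblast and osteocyte markers, 6 were called higher and 0 lower, and their sum ranged from 1305 to 12299 CPM in control and from 4035 to 38804 CPM in the libraries labeled knockout. The libraries at the ends were shared with *Acp5* and *Ctsk*: control replicates 8 and 5 were lowest and highest in control, and replicates 5 and 2 in the other group. As an alternative chosen after the data had been seen, the log2 CPM values of the listed genes were summed and added to the model as a covariate. This covariate weighs each gene alike, unlike the summed CPM above. In that fit 223 genes in all were called, and 3 of the 8 members. *Acp5* (log2 fold change 1.49, adjusted p = 0.0432), *Ctsk* (1.55, adjusted p = 0.0407) and *Ostf1* (0.51, adjusted p = 0.0307) kept their calls in this edgeR fit. *Jdp2* (0.77, adjusted p = 0.134), *Nfatc1* (0.22, adjusted p = 0.431) and *Calcr* (0.65, adjusted p = 0.705) did not. The list itself differed between the groups, with a median sum of 3431 CPM in control and 20926 CPM in the libraries labeled knockout. This fit therefore cannot fully separate the group from the list. Calls fell from 3673 to 223 over all genes, so a lost call is not particular to a member. The value of *Ostf1* hardly moved, whereas those of *Acp5* and *Ctsk* fell by more than 1 on the log2 scale.

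Macrophage and muscle markers also differed. Of 10 macrophage markers 8 were called higher (sum 96.4 to 382 CPM in control, 254 to 1036 CPM in the libraries labeled knockout). Of these, *Csf1r* is also in the osteoclast signal input list given below. What osteoclasts contribute to the other macrophage markers was not tested. Of 10 skeletal muscle markers 4 were called lower, and with this list as covariate *Acp5* (1.94), *Ctsk* (1.87), *Jdp2* (1.01) and *Ostf1* kept their calls, whereas *Nfatc1* (0.41, adjusted p = 0.0918) and *Calcr* (0.96, adjusted p = 0.396) lost theirs. Neutrophil (1 of 9 tested higher), erythroid (0 of 8), B cell (0 of 5), chondrocyte (2 of 9 higher) and fibroblast (4 of 8 higher) markers had no gene called lower.

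Next, the members were set against *Ctsk* within each library, which asks whether a gene differed between the groups by another factor than *Ctsk* and does not depend on library scaling. The log2 ratio to *Ctsk* was lower in the libraries labeled knockout for 6 of the 7 other members. For *Jdp2* the mean log2 ratio to *Ctsk* went from -3.37 ± 0.55 (SD, n = 8) to -4.59 ± 0.40 (SD, n = 12), a difference of -1.22 (exact permutation test, two-sided, adjusted p = 7.41e-05 over 7 ratios). For *Nfatc1* the ratio moved from -0.90 ± 0.83 to -2.99 ± 0.75 (difference -2.09, adjusted p = 7.41e-05 by the exact permutation test). All 12 libraries labeled knockout lay below the control median for *Jdp2*, *Nfatc1*, *Ostf1*, *Mitf* and *Car2*. The differences for *Ostf1* (-2.08), *Mitf* (-2.76) and *Car2* (-2.72) had exact permutation adjusted p of 0.000222, 0.000194 and 7.41e-05. The regulators, *Ostf1* and *Car2* thus differed from *Ctsk* in the size of their change. Only 29 of the 15984 tested genes, *Ctsk* included, had a log2 fold change at least as large as that of *Ctsk*. A lower ratio to *Ctsk* is therefore what most genes would show and is not particular to these members.

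The ratio of *Acp5* to *Ctsk* hardly shifted, from -0.50 ± 0.27 (SD, n = 8) to -0.21 ± 0.32 (SD, n = 12), a difference of 0.29 (exact permutation adjusted p = 0.0493). It stayed past the threshold in 6 of the 20 fits without 1 library, those without control replicate 5 or labeled knockout replicates 4, 5, 6, 7 or 11. The ratio of *Calcr* to *Ctsk* differed by -1.11 (exact permutation adjusted p = 0.0159) with a prior count of 2. With a prior count of 0.5 it differed by -0.84 (adjusted p = 0.155, exact permutation), so the call depends on the prior count given to the library with 0 counts. Without that library, control replicate 4, the difference was -1.43. The call was kept in all 20 fits without 1 library (exact permutation adjusted p at most 0.0461).

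**Figure D2:**
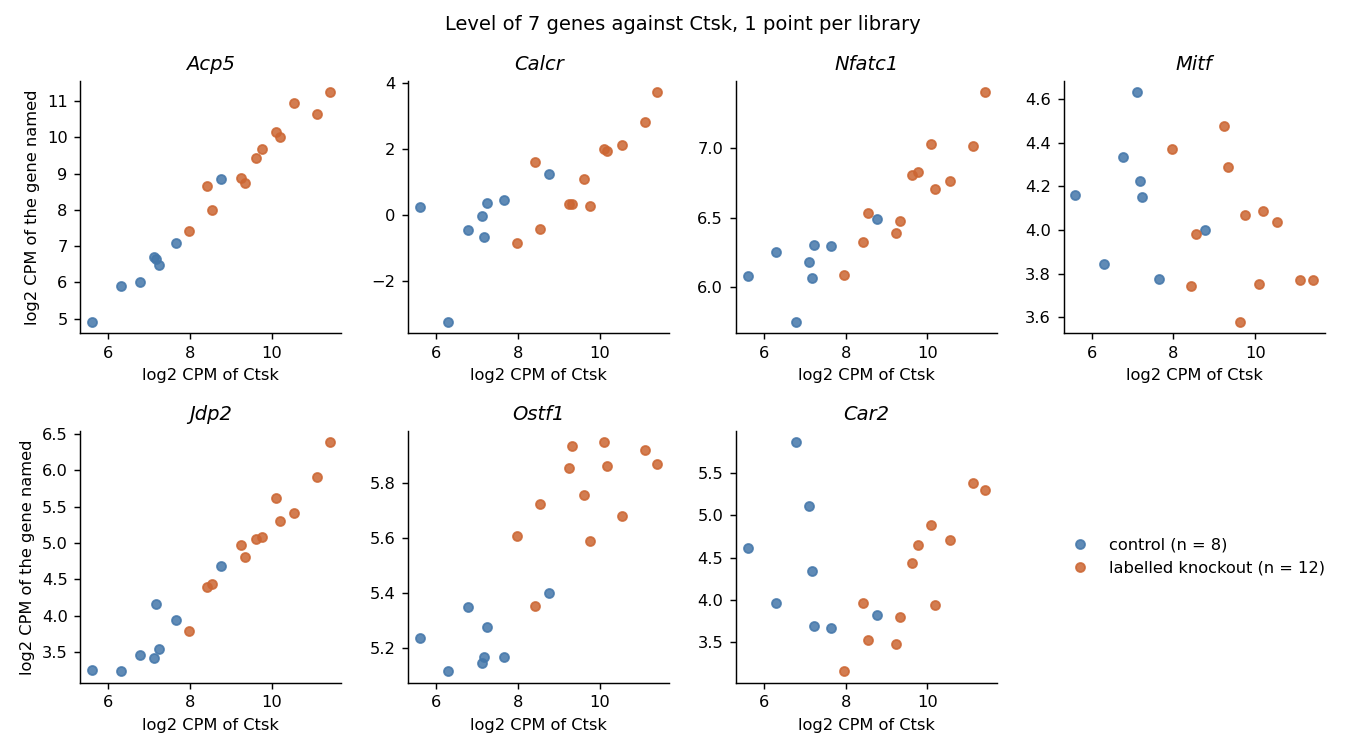
Level of 7 members against *Ctsk* in each library, both as log2 CPM with a prior count of 2, with control libraries in blue and libraries labeled knockout in orange. *Acp5* and *Jdp2* rise with *Ctsk* across both groups, *Ostf1* shifts between the groups with little slope, and *Car2* rises with *Ctsk* in the libraries labeled knockout but not in control.

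Within a group, *Acp5* and *Jdp2* tracked *Ctsk* closely. Across the 12 libraries labeled knockout, Pearson's r with *Ctsk* was 0.97 for *Acp5* and 0.97 for *Jdp2* (rho 0.97 for each, permutation adjusted p = 7.00e-05 over 14 relations), and *Nfatc1* (r 0.90, rho 0.85), *Car2* (r 0.88, rho 0.84) and *Calcr* (r 0.86, rho 0.85) varied with it too (permutation adjusted p = 0.000233, 0.000532 and 0.000770 for r, and 0.00291 for each rho). Without replicates 2 and 5, the libraries farthest from the median of *Ctsk*, these r were 0.94, 0.96, 0.81, 0.79 and 0.72. *Ostf1* (r 0.57, rho 0.50, adjusted p = 0.0921 and 0.124 by permutation) and *Mitf* (r -0.40, rho -0.25, adjusted p = 0.246 and 0.428 by permutation) did not pass.

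Across the 8 control libraries, *Acp5* (r 0.98, rho 0.90, exact permutation adjusted p = 0.000521 and 0.0106) and *Jdp2* (r 0.87, rho 0.88, adjusted p = 0.00466 and 0.0145, exact permutation) passed, and without control replicates 5 and 8 their r were 0.94 and 0.70. The relation of *Jdp2* in control no longer passed without these libraries (adjusted p = 0.204, exact permutation) and so rests on them. *Calcr* (r 0.53, rho 0.69), *Nfatc1* (r 0.57, rho 0.67), *Ostf1* (r 0.44, rho 0.40), *Mitf* (r -0.15, rho -0.36) and *Car2* (r -0.37, rho -0.67) did not pass in control, with permutation adjusted p from 0.200 to 0.729 for r and from 0.116 to 0.419 for rho. Without replicates 5 and 8 these r were 0.89, 0.29, 0.05, -0.0022 and -0.30, and that of *Calcr* then passed (adjusted p = 0.0389, exact permutation). With library totals alone as scaling, *Nfatc1* (r 0.84, exact permutation adjusted p = 0.0123) and *Ostf1* (r 0.94, exact permutation adjusted p = 0.00191) passed in control, and *Ostf1* passed in the libraries labeled knockout (r 0.73, permutation adjusted p = 0.00739). For *Car2* the sign of r differed between the groups (-0.37 in control, 0.88 in the libraries labeled knockout), a difference that was not tested.

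Per length of merged exon, the effectors *Ctsk* and *Acp5* were the most abundant members in every library. The median level per kilobase in control was 93.5 CPM for *Ctsk*, 46.8 for *Acp5*, 9.94 for *Nfatc1*, 7.36 for *Car2*, 7.19 for *Ostf1*, 5.22 for *Jdp2*, 2.86 for *Mitf* and 0.249 for *Calcr*. *Ctsk* lay above *Acp5*, and *Acp5* above *Nfatc1*, in 8 of 8 control libraries, whereas *Nfatc1* over *Car2* (5 of 8), *Car2* over *Ostf1* (4 of 8) and *Ostf1* over *Jdp2* (5 of 8) were not ordered beyond their spread. In the libraries labeled knockout the medians per kilobase were 547 CPM for *Ctsk*, 371 for *Acp5*, 15.6 for *Jdp2*, 14.3 for *Nfatc1*, 10.9 for *Ostf1*, 7.68 for *Car2*, 2.58 for *Mitf* and 0.629 for *Calcr*. *Jdp2* had moved from the sixth place to the third, above *Nfatc1* in 9 of 12 libraries. With the longest transcript as length, *Nfatc1* (22.2) stood above *Jdp2* (20.3) in that group, and *Ostf1* (13.04) above *Car2* (9.97) in control.

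**Figure D3:**
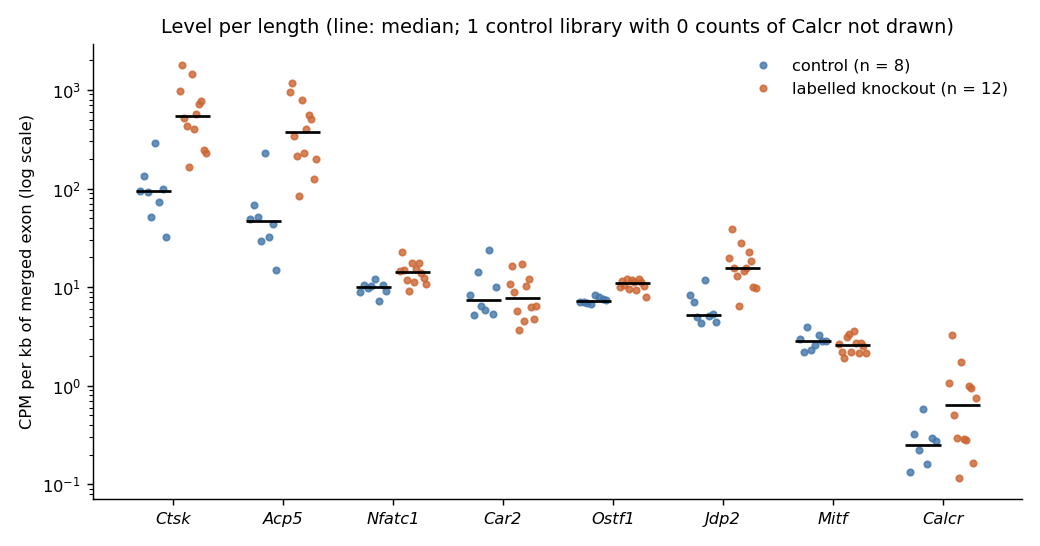
CPM per kilobase of merged exon on a log axis for the 8 genes, ordered by the control median, with 1 point per library and the group median as a line. *Ctsk* and *Acp5* have the highest medians, and *Calcr* is lowest in both groups.

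The genes whose level varied most like that of a member across the 20 libraries, after the group means had been removed, were named as a description with no test for 6 members, *Jdp2* and *Ostf1* not among them. For *Acp5* they were *Mmp9* (r 0.99), *Atp6v0d2* (0.98) and *Slc9b2* (0.98), which encode a secreted gelatinase, a subunit of the osteoclast proton pump and a sodium/proton exchanger. For *Ctsk* they were *Slc9b2* (0.97), *Mmp9* (0.97) and *Acp5* (0.97). For *Calcr* they were *Oscar* (0.88), an osteoclast immunoreceptor, *Rac2* (0.86) and *Chaf1b* (0.86). *Nfatc1* was followed by *Pxk* (0.93), *Zdhhc24* (0.92) and *Smad6* (0.92), and *Mitf* by *Foxp2* (0.81), *Rps6ka3* (0.81) and *Myo5c* (0.80). For *Car2* they were *Pde8b* (0.75), *Apol11b* (0.75) and *Gp5* (0.74), the last a platelet glycoprotein gene. The mean of the 8 members was followed most closely by *Slc37a2* (0.95), *Erp29* (0.95), *Rufy4* (0.94), *Tyrobp* (0.94) and *Tcirg1* (0.94). The libraries share depth, dissection and scaling, so these values describe the 20 libraries alone.

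Every tested relative of *Acp5* and *Ctsk* had a smaller fold change than these effectors. Of the 3 tested acid phosphatase relatives of *Acp5*, 0 were called, with log2 fold changes of 0.17 for *Acp2*, -0.26 for *Acp6* and -0.27 for *Acp1*. Of 9 cysteine cathepsins besides *Ctsk*, 4 were called higher and 0 lower: *Ctsz* (1.24, edgeR adjusted p = 0.00144), *Ctss* (1.27, adjusted p = 0.0205), *Ctsh* (0.73, adjusted p = 0.0113) and *Ctsb* (0.42, adjusted p = 0.00913). These are lysosomal proteases that are not restricted to osteoclasts. With the skeletal muscle list as covariate 2 of them kept a call, and with the osteoblast and osteocyte list 0. Among 11 tested carbonic anhydrases besides *Car2*, 1 rose and 2 fell, shares near those over all genes (12% higher, 11% lower). *Car12*, a membrane enzyme, rose (1.66, edgeR adjusted p = 0.00489), whereas *Car3*, the abundant enzyme of muscle and fat, fell from 473 to 216 CPM on average (-1.13, adjusted p = 0.00867), and *Car11* fell by 0.63 on the log2 scale (adjusted p = 0.0148). *Car14* did not pass (-0.64, adjusted p = 0.0529). With the skeletal muscle list as covariate *Car3* lost its call (-0.61, edgeR adjusted p = 0.175), whereas *Car12* (1.23) and *Car11* (-0.79) kept theirs. Without control replicates 5 and 8 *Car3* was called with a smaller difference (-0.70, edgeR adjusted p = 0.0240). Its highest control library had 1408 CPM. Over the fits without 1 library, 1 to 3 of the 11 were called higher and 2 to 4 lower. With the replicate block 0 were called in either direction.

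Of the 4 tested NFAT relatives of *Nfatc1*, *Nfatc4* rose (0.68, edgeR adjusted p = 0.0296), a call lost without control replicates 3 or 6 or labeled knockout replicate 2 (adjusted p up to 0.0576), and *Nfat5* (0.13), *Nfatc3* (0.03) and *Nfatc2* (-0.31) did not pass. Of the 3 MiT/TFE relatives of *Mitf*, 2 rose and 0 fell. *Tfec*, a relative expressed in macrophages and osteoclasts, rose from 0.357 to 1.47 CPM on average (2.06, edgeR adjusted p = 0.0180), *Tfe3* rose by 0.30 (adjusted p = 0.0212), and *Tfeb* had a log2 fold change of -0.47 (adjusted p = 0.0646). With either the skeletal muscle or the osteoblast and osteocyte list as covariate, 0 of the NFAT and 0 of the MiT/TFE relatives were called higher, and *Tfec* did not pass the filter in the 16 libraries that share replicate numbers. Of 11 basic leucine zipper relatives of *Jdp2*, 5 rose and 0 fell. These were *Fosl2* (1.11), *Batf* (1.16), *Fos* (1.28), *Junb* (0.80) and *Jund* (0.61), whereas *Jun* (-0.08) did not pass. With the skeletal muscle list as covariate 4 of these relatives were called higher, and 3 with the osteoblast and osteocyte list.

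**Figure D4:**
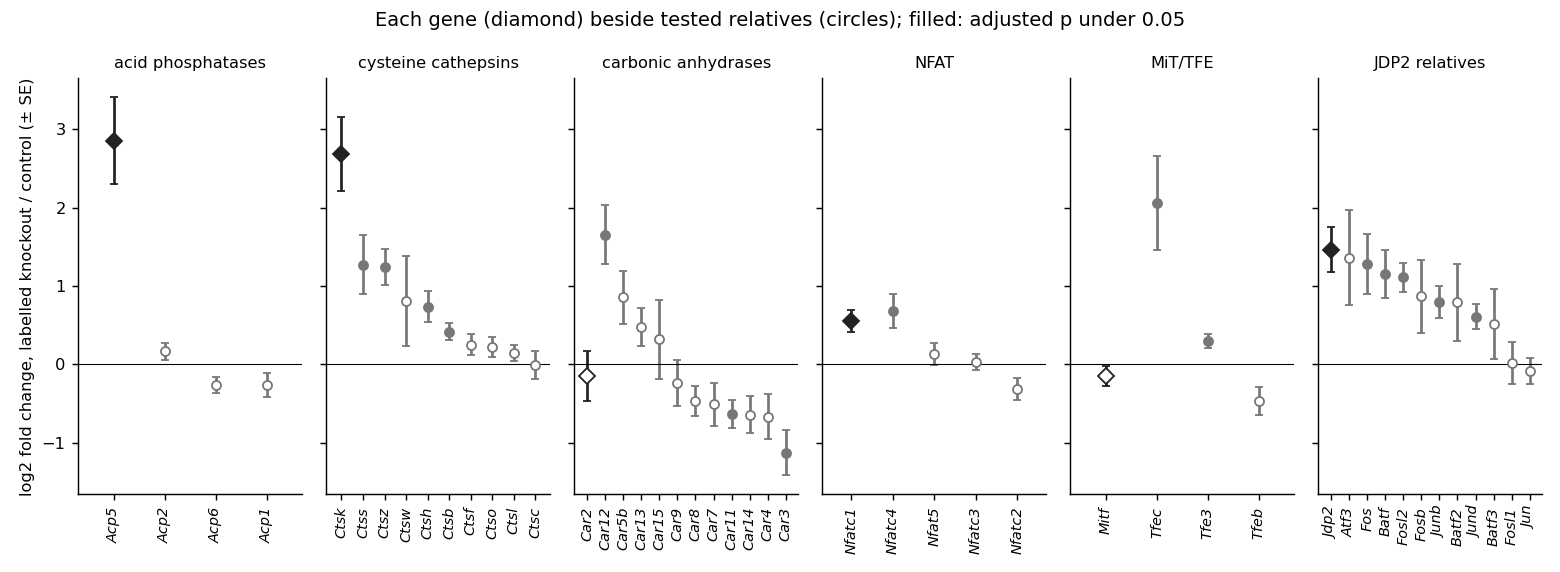
Log2 fold change with its standard error of 6 members (diamonds) and the tested genes of their families (circles), filled where the edgeR adjusted p was under 0.05. *Acp5* and *Ctsk* lie above every tested relative of their families, and *Tfec* lies above *Mitf*.

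Osteoclast genes outside the 8 were grouped by role. In the signal input list, 9 of 14 tested genes were called higher and 0 lower. The genes with the smallest p were *Fcer1g* (log2 fold change 1.66), *Csf1* (1.15, the gene of M-CSF), *Tyrobp* (2.16) and *Oscar* (2.96), of which *Fcer1g*, *Tyrobp* and *Oscar* encode immunoreceptor adaptors or receptors. The RANKL axis was chosen for its role after its values had been seen. The receptor gene *Tnfrsf11a* rose from 3.23 to 13.1 CPM on average (2.02, edgeR adjusted p = 0.00214), whereas the ligand *Tnfsf11* (0.92, adjusted p = 0.0685) and the decoy receptor *Tnfrsf11b* (-0.06, adjusted p = 0.945) did not pass.

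Of 12 transcription factors that promote osteoclasts, 9 were called higher and 1, *Ppargc1b*, a coactivator of mitochondrial genes, was called lower (-0.42, edgeR adjusted p = 0.0473). The smallest p belonged to *Fosl2* (log2 fold change 1.11), *Spi1* (2.11, the gene of PU.1), *Myc* (1.01) and *Relb* (0.46). The call of *Ppargc1b* was lost with library totals alone, without a filter on low counts, in the 16 libraries that share replicate numbers and with each of the 3 covariates (Y-linked, skeletal muscle, osteoblast and osteocyte). It was also lost in 15 of the 20 fits without 1 library, all but those without control replicate 5 or labeled knockout replicates 1, 2, 5 or 12. Of the 6 factors that restrain osteoclasts, 0 passed the edgeR test, and 2 had an unadjusted p under 0.05: *Id2* (log2 fold change 0.54) and *Bcl6* (-0.38). DESeq2 also called 0 of the 6. Over the fits without 1 library, 0 to 1 of the 6 were called higher and 0 to 1 lower.

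In the resorption machinery, 16 of 20 genes were called higher and 0 lower. *Mmp14* (1.78), a membrane collagenase, *Slc9b2* (2.79), *Ctsz* (1.24) and *Ocstamp* (2.88), which acts in cell fusion, had the smallest p. The median log2 fold change was 1.27 over this list, 1.25 over the signal input list, 0.74 over the promoting factors and 0.22 over the restraining factors, beside -0.02 over all genes. With the osteoblast and osteocyte list as covariate, 3 of 20 genes of the machinery, 4 of the signal input genes and 3 of the promoting factors were called higher, and with the skeletal muscle list 14, 8 and 5.

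**Figure D5:**
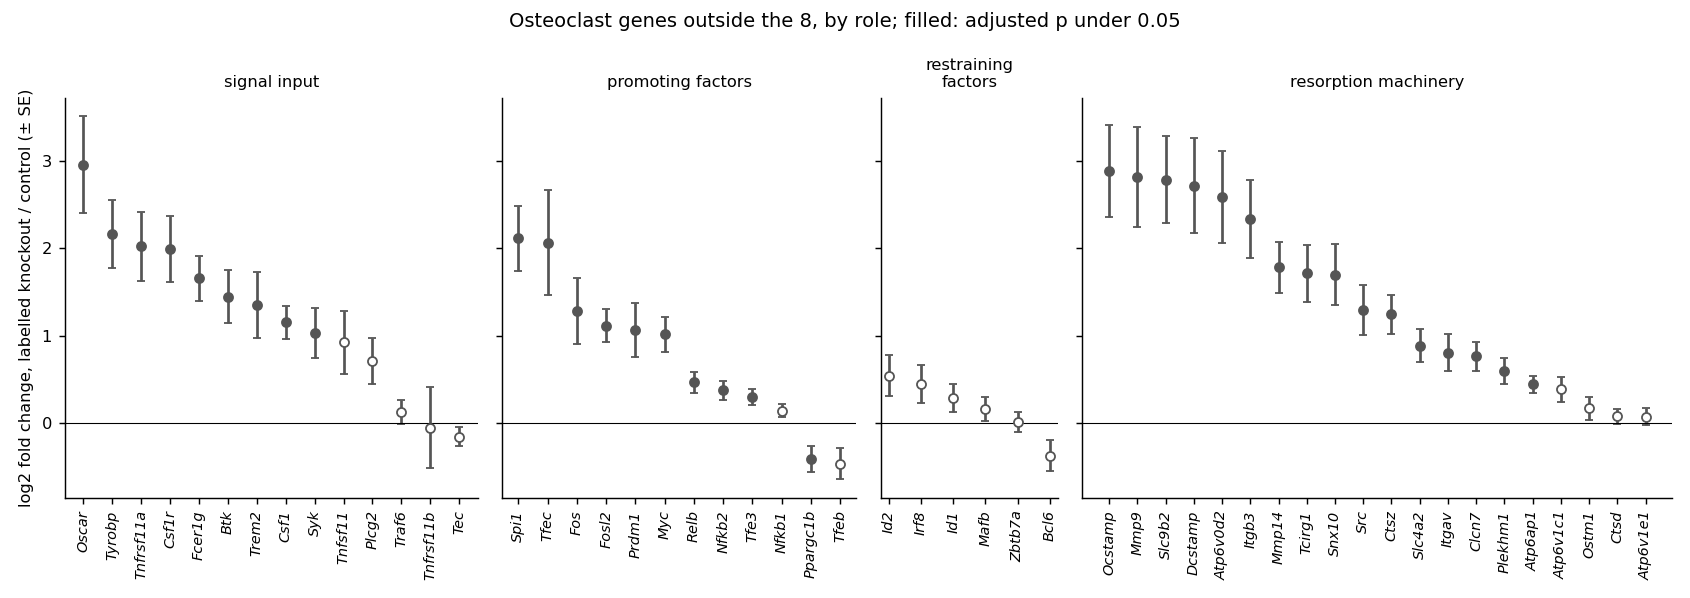
Log2 fold change with its standard error for the tested genes of 4 osteoclast lists, sorted within each list and filled where the edgeR adjusted p was under 0.05. Most genes of signal input and of the resorption machinery lie above 0, and the 6 restraining factors lie around 0 with open symbols.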

How the data were processed

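The 20 libraries were made from condylar heads, 1 per sample. Per the methods of the study and the labels, the authors trimmed paired-end reads, aligned them to mm10 and counted them per gene with featureCounts, and what they deposited are unnormalized read counts by Ensembl identifier. The aligner, the annotation release and the use of strand are not given in the sources used here, so reads of overlapping or antisense genes cannot be separated.

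Of 54532 genes, 54495 were matched to GENCODE M21 (GRCm38/mm10), which gave symbols, coordinates and exon lengths. Genes were kept by filterByExpr, scaled by TMM and tested with the quasi-likelihood F-test of edgeR 4.0.16 (R 4.3.3), two-sided, with Benjamini-Hochberg adjustment over 15984 genes and a threshold of 0.05. Standard errors were derived from the F statistic. DESeq2 1.42.0, which the authors used, was an alternative. For log2 CPM a prior count of 2 was used. Ratios were tested over all 125970 assignments of the libraries, and correlations over 40320 pairings or 100000 resamples (scipy 1.17.1 and numpy 2.4.6). The smallest permutation p for 12 libraries was 1.00e-05. In simulated counts, edgeR recovered 164 of the 200 genes given a log2 change of 1.5 among 15984, with 11 false calls.

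All 8 members are named. From each pathway or family list the genes with the smallest p, at most 4, are named, with relatives that set a member beside its paralogs. The members and lists were chosen with earlier results of these data known. Groups came from the sample titles, and nothing beyond the labels says how samples were pooled. The floor of 3 counts covers counting error alone, whereas SD and SE include the variation between animals. In all, 0 columns of the table lacked a sample. The biological coefficient of variation was 37.3%. Alternatives were 13 planned fits, 2 added after the data had been seen and 20 that each left out 1 library.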

Additional observations from a re-analysis of the deposited data

Results flagged for a closer look

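Control replicate 5 stood apart from the other 7 control libraries. Its *Acp5* level was 463 CPM, with the next control library at 137 CPM, and its *Ctsk* level was 435 CPM, with the next at 200 CPM. In both cases the gap to the nearest library, divided by the range of the group, exceeded the 95% critical value of Dixon's test. The same library was highest for the osteoblast and osteocyte list, with 12299 CPM against 4728 CPM in the next library, and for the B cell list, with 65.8 CPM against 46.5 CPM. In all, 18 sets of control values were looked at, 8 members and 10 marker lists. For normally distributed values, chance alone flags about 1 set in 20. Groups of 12 were not examined in this way.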

How the results depend on the processing

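*Acp5*, *Ctsk*, *Jdp2* and *Ostf1* kept direction and call in 13 other settings of the fit and in the 20 fits without 1 library. The replicate numbers do not pair the samples (correlations of same-numbered libraries over 0.1 in 2 of 8 pairs). With the replicate block in 16 libraries, 1786 genes in all were called, and *Calcr* (1.65, adjusted p = 0.170) and *Nfatc1* (0.55, adjusted p = 0.0695) lost their calls, leaving 4 members. The same 16 libraries without the block gave 3280 genes, and *Calcr* lost its call there (adjusted p = 0.0530, edgeR) and without a filter on low counts (adjusted p = 0.0576, edgeR). The skeletal muscle covariate left 1333 genes, the osteoblast and osteocyte covariate 223 genes and 3 members. Omission of 1 library gave 2551 to 4181 genes called, the lowest without control replicate 8. *Mitf* turned to 0.0019 with library totals alone, which moved the median of all genes to 0.12, and to 0.032 with the osteoblast and osteocyte covariate. *Car2* turned to 0.047 with library totals, and ran from -0.28 to 0.18 without 1 library, positive only without control replicate 6. The ratio of *Acp5* to *Ctsk* was 0.29 with a prior count of 0.5 and 0.35 by medians, neither past the threshold, and 0.24 to 0.38 without 1 library. The ratio of *Calcr* was -0.84 with a prior count of 0.5, not past the threshold, and -1.43 to -0.83 without 1 library, past it in all 20. In control, correlations with *Ctsk* under library totals were 0.84 for *Nfatc1*, 0.94 for *Ostf1* and 0.40 for *Mitf*, and 0.73 for *Ostf1* in the libraries labeled knockout. Without the farthest libraries they were 0.89 for *Calcr* and 0.70 for *Jdp2* in control. For those changes the cause was not tested. Depth limits *Calcr* alone among the members, with at most 33 counts in a control library.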

Other observations

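Red cell precursors, mast cells and muscle are other places where *Car2* or *Mitf* is known to be active, and after the values had been seen both genes were compared with the summed markers of these cells within each group, in 12 relations. Across the 12 libraries labeled knockout, *Mitf* fell as the erythroid sum rose (r -0.79, rho -0.78, permutation adjusted p = 0.0289 and 0.0487), and r was -0.70 once the 2 libraries with the most extreme erythroid sums were dropped. Across the 8 control libraries r was 0.61 (exact permutation adjusted p = 0.212), and the difference between the groups was not tested. *Car2* rose with the mast cell sum across the libraries labeled knockout (r 0.76, adjusted p = 0.0313 by permutation; rho 0.71, adjusted p = 0.0769), with r 0.73 without the 2 farthest, and had an r of 0.03 in control (adjusted p = 0.943, exact permutation). Across the 12 libraries labeled knockout *Car2* also rose with *Ctsk* (r 0.88), and whether its relation with the mast cell sum is separate from this was not tested. *Car2* and the erythroid sum had an r of 0.65 in control (exact permutation adjusted p = 0.212), which became -0.64 without the 2 farthest libraries, so that value rests on them. The other relations had a permutation adjusted p of at least 0.212.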
